A study of Mus musculus with 6 samples.

Results

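The serpins of the mouse thyroid lobe were followed after loss of the forkhead transcription factor Foxe1. Members were chosen by symbol, as every gene whose name begins with Serpin, and within a gene by the brightest mean log2 value of its probe sets, which gave 55 of the 19505 named genes on the array. They comprise 20 genes of clade A (Serpina), 26 of clade B (Serpinb) and 9 of clades C to I. Each had 1 probe set, so brightness excluded nothing, and the rule by symbol itself used no difference between genotypes. The family and this rule were, however, taken up with earlier results of these data known. Every test quoted was made over all 22206 probe sets of the array.

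Whole-transcript arrays measured RNA of 1 frozen lobe per animal from 3 mice of genotype Foxe1flox/flox/Cre, called knockouts here, and from 3 mice labelled Cre control. All 6 were of C57BL/6J background, carried Cre and had tamoxifen at 0.05 g/kg into the abdomen on each of 5 days from an age of 6 to 8 weeks. Thyroid was taken 2 weeks after treatment, so tamoxifen and Cre were shared by both groups and the floxed Foxe1 alleles were not. Neither the promoter driving Cre nor the animals' sex is given in the sources used here. Values are log2 readings, on which a difference of 1 means a doubling. Readings near 3 lie among the dimmest probe sets of an array, whose lower quartile was 3.49 to 3.60, and in the absence of detection calls they may be background. Array medians lay within 5.62 to 5.69. Foxe1 itself read 7.60, 7.19 and 7.04 in controls against 3.33, 2.88 and 3.04 in knockouts (difference -4.19, SE 0.22, limma adjusted p = 0.000442).

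Most serpins stop serine or cysteine proteases by offering a reactive loop as bait, after which the protease is trapped in a covalent complex and the serpin refolds. Clade A members are mostly secreted by the liver and include antitrypsin and the carriers of thyroxine and cortisol. Clade B members lack a classical signal peptide and act mainly inside cells, many of them in squamous epithelium and leukocytes. A few serpins inhibit no protease, among them the collagen chaperone Serpinh1, the hormone carriers and, by most accounts, Serpinb5. Mouse clade B genes lie in a pair of clusters, on chromosomes 1 and 13, and most clade A genes lie in a cluster on chromosome 12.

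Of the 9 serpins in which all 3 knockouts read above all 3 controls, 7 were Serpinb genes of chromosome 1. Of the 11 genes of that cluster, 10 had a positive difference, and Serpinb7 passed the threshold of 0.05 on the adjusted p. Serpinb7 was the single member of the family to pass, which is 1 of 55 (1.82%), against 0.338% of all probe sets called in either direction and 0.252% called higher and 0.0856% called lower. At an unadjusted p under 0.05 there were 7 serpins higher and 1 lower, against 6.61% and 6.13% of all probe sets. The difference was positive in 28 of the 55 and in 46.8% of all probe sets. Readings of the groups that did not overlap, with the knockout higher, occurred in 9 of 55 serpins (16.4%) and in 9.28% of all probe sets, and with the knockout lower in 5 of 55 (9.09%) and 8.78%. The median difference was 0.66 over the chromosome 1 genes, -0.037 over the 15 Serpinb genes of chromosome 13, -0.075 over the 20 Serpina genes, 0.017 over the 9 of other clades and -0.023 over all probe sets. No test of these medians was made. In a whole lobe, more cells of a type and more RNA per cell cannot be told apart.

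**Figure D1:**
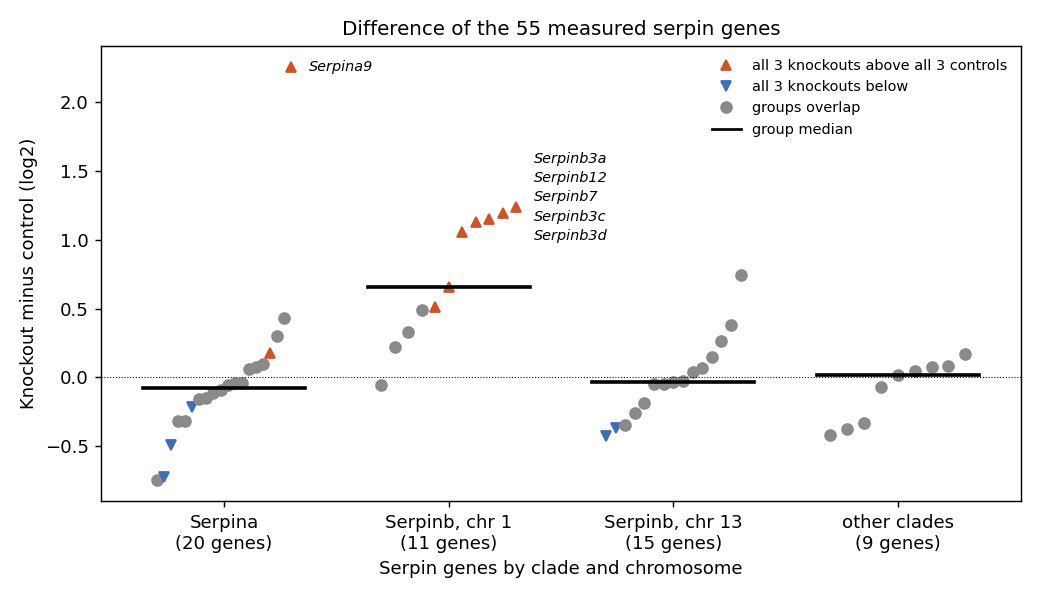
Knockout minus control difference on the log2 scale (vertical axis) of each of the 55 serpin genes, by clade and chromosome (horizontal axis), with symbols showing whether the groups of 3 arrays overlap and a bar at each group's median. The chromosome 1 Serpinb genes centre at 0.66 while the other 3 groups centre between -0.075 and 0.017, and Serpina9 stands apart at 2.26.

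Serpinb7, also called megsin, is an inhibitor of upper epidermis whose loss in humans causes a thickening of palm and sole skin. It read 8.34, 8.49 and 8.10 in controls, and 9.49, 9.47 and 9.42 in knockouts. The 3 knockouts were nearly alike and stood far above the highest control. Its mean rose from 8.31 ± 0.20 to 9.46 ± 0.036 (SD, n = 3 each), a difference of 1.15 (SE 0.18, 95% interval 0.73 to 1.57, limma adjusted p = 0.0485), or 2.22-fold. The call was marginal. Without any single array the difference stayed between 1.05 and 1.24, but the adjusted p was 0.0948 to 0.158.

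Serpinb3a, Serpinb3c and Serpinb3d belong to a mouse group of tandem copies related to the human squamous cell carcinoma antigens, which inhibit cysteine and serine proteases in the cytoplasm of squamous cells. Serpinb3a read 16.63, 16.84 and 16.85 in controls, and 18.02, 17.75 and 18.26 in knockouts, a difference of 1.24 (SE 0.20, 95% interval 0.78 to 1.69, limma adjusted p = 0.0504), just outside the threshold. All 3 knockouts stood above the controls, on a stretch of the scale near its top of 19.93, where differences may be compressed. Serpinb3c read 6.36, 6.40 and 6.74 in controls, and 7.50, 7.60 and 7.80 in knockouts, a difference of 1.13 (SE 0.19, adjusted p = 0.0598). Serpinb3d read 4.39, 4.72 and 4.50 against 5.47, 5.14 and 6.17, a difference of 1.06 (SE 0.27, adjusted p = 0.15). Both had every knockout above every control, with knockout 3 highest. Near-identical copies can share array probes, so how much of the Serpinb3c and Serpinb3d readings came from Serpinb3a was not tested.

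Serpinb12 inhibits trypsin-like proteases and is found in epithelia of the body surface. It read 16.21, 17.09 and 16.72 in controls, and 17.93, 17.46 and 18.22 in knockouts. The lowest knockout stood above the highest control, and both groups spread widely. The difference was 1.20 (SE 0.28, 95% interval 0.56 to 1.84, limma adjusted p = 0.13).

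The other chromosome 1 members had smaller differences, and none passed the threshold. Serpinb11, an epithelial serpin, read 12.76, 12.34 and 12.10 against 12.89, 12.85 and 13.44 (difference 0.66, adjusted p = 0.304). Serpinb5, known as maspin and studied as a tumour suppressor of epithelial cells, read 13.37, 13.85 and 13.72 against 13.99, 13.86 and 14.62 (difference 0.51, adjusted p = 0.442). Neither overlapped between groups, but in Serpinb5 the nearest control and knockout were 13.85 and 13.86. Serpinb10, or bomapin, of haematopoietic cells, differed by 0.49, Serpinb13, an inhibitor of lysosomal cathepsins in keratinocytes, by 0.33 and Serpinb8, an inhibitor of furin, by 0.22, with overlapping groups and adjusted p of 0.492 or more. Without knockout 3 the difference was 0.28 for Serpinb5, 0.25 for Serpinb10 and 0.032 for Serpinb8, and without control 2 it was 0.18 for Serpinb13. Serpinb13 read between 3.16 and 3.92 on all arrays, at the level of dim probe sets. Serpinb2, the plasminogen activator inhibitor of squamous cells and macrophages, was the exception in sign, with 12.76, 13.42 and 13.77 against 13.19, 12.72 and 13.87 (difference -0.057, 95% interval -0.84 to 0.73). Its sign was not stable, with a difference of 0.17 without control 3 and 0.21 without knockout 2.

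**Figure D2:**
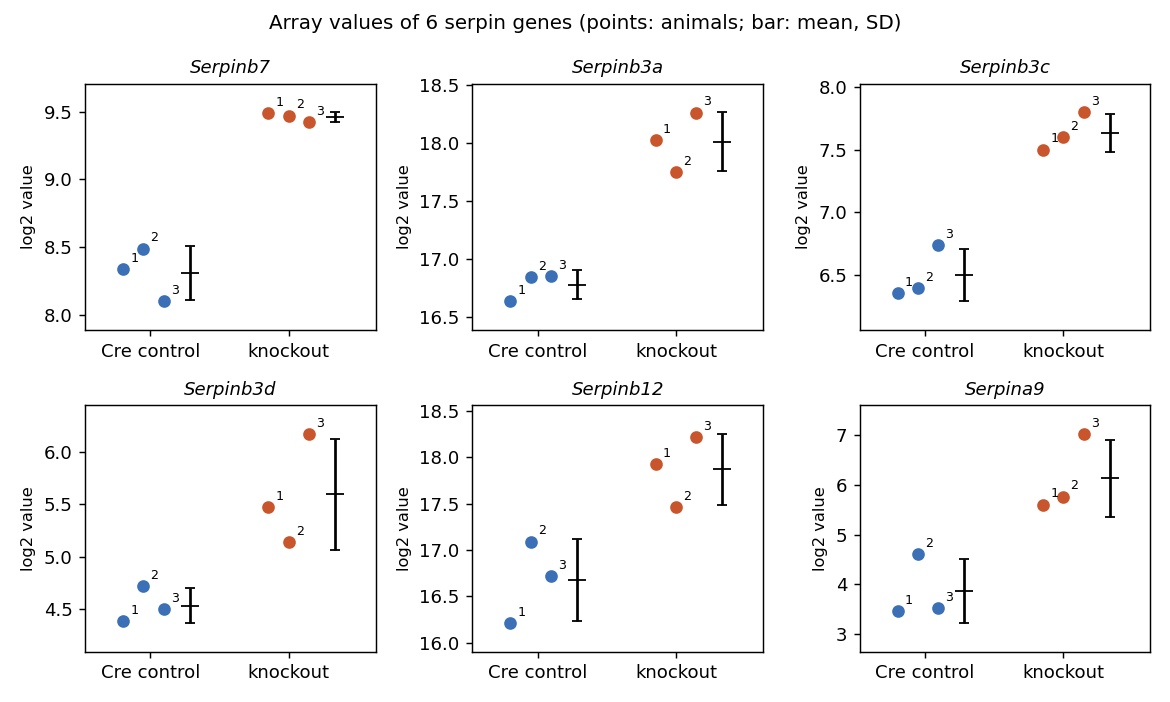
Log2 values (vertical axes, each with its own range) of Serpinb7, Serpinb3a, Serpinb3c, Serpinb3d, Serpinb12 and Serpina9 in the 3 Cre control and 3 knockout animals, numbered by replicate, with the mean and SD of each group. In all 6 genes every knockout lies above every control, and the knockout values of Serpinb7 sit between 9.42 and 9.49.

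In chromosome order the largest differences ran from Serpinb12 to Serpinb7. RefSeq lists the measured members as Serpinb5, Serpinb12, Serpinb13, Serpinb3a, Serpinb3d, Serpinb3c, Serpinb11, Serpinb7, Serpinb2, Serpinb10 and Serpinb8, with 0 other measured genes between them. The 5 differences of at least 1 all fell in this inner stretch, with dim Serpinb13 and Serpinb11 among them. The 10 measured genes next to the cluster, 5 on each side, had a median difference of 0.063. All knockouts stood above all controls in 2 of these 10, against 9.28% of all probe sets. Vps4b, which helps sever membrane necks in the endosomal pathway and is the nearest neighbour of Serpinb5, had the highest of these at 0.74 (adjusted p = 0.216). Kdsr, of sphingolipid synthesis, was at 0.12, the survival gene Bcl2 at 0.49 and the cadherin Cdh7, beyond Serpinb8, at -0.083. The difference between the cluster and its neighbours was not tested.

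**Figure D3:**
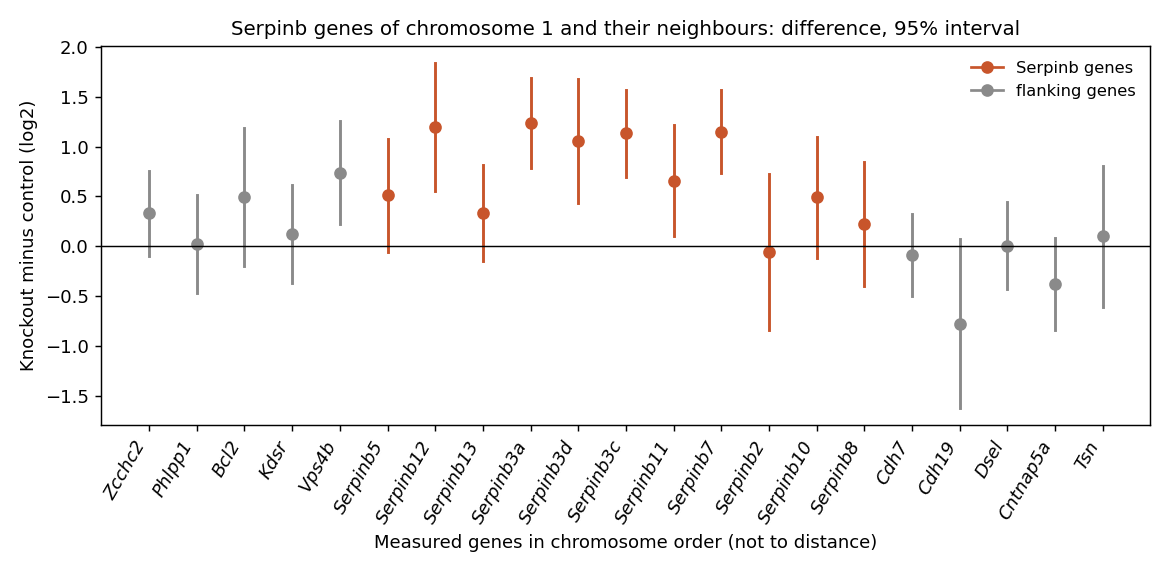
Knockout minus control difference on the log2 scale, with its 95% interval from limma (vertical axis), of the 11 measured Serpinb genes of chromosome 1 and the 5 nearest measured genes on each side, in RefSeq gene order and not to distance (horizontal axis). The differences of at least 1 lie between Serpinb12 and Serpinb7, and the flanking genes lie between -0.78 and 0.74.

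The start regions of the 5 chromosome 1 members with a difference of at least 1 are shown because these genes lie close together and each had all knockouts above all controls, although Serpinb7 alone passed the threshold. Each is the 250 bases before the RefSeq start site, 5′ to 3′ on the gene's strand, with coordinates of build GRCm38.p6. Capitals mark matches on either strand to TGANTCA, the core bound by AP-1 factors, and to TATAAA, the letters of a TATA box. The 2 motifs overlap nowhere in these stretches. TATAAA matches were marked at any position, and none is shown to act as a TATA box. They begin 239 and 33 bases before the start in Serpinb7, 65 in Serpinb3a, 31 in Serpinb3c, 40 in Serpinb3d and 220 in Serpinb12. Serpinb12 has 2 listed starts, and the one farther upstream is shown.
Serpinb7, chr1:107422439-107422688, strand +: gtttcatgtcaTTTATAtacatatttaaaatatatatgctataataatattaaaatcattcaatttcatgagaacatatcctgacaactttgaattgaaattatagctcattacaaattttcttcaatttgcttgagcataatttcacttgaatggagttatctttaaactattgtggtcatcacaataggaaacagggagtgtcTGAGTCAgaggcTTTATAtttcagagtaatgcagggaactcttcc
Serpinb3a, chr1:107052304-107052553, strand -: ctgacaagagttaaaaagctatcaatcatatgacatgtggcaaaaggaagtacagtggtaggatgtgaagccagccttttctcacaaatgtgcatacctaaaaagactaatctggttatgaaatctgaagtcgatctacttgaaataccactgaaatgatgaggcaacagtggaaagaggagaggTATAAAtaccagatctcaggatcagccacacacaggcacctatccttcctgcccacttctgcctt
Serpinb3c, chr1:107278372-107278621, strand -: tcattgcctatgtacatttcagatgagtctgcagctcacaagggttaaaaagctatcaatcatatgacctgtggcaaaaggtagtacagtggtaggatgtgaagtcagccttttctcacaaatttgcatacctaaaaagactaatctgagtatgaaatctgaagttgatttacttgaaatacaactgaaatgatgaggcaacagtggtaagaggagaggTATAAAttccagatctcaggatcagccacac
Serpinb3d, chr1:107083481-107083730, strand -: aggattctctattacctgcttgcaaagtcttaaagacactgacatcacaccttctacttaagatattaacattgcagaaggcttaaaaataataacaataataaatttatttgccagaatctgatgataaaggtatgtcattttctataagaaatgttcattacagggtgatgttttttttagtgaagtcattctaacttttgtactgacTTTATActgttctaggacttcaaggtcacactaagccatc
Serpinb12, chr1:106934199-106934448, strand +: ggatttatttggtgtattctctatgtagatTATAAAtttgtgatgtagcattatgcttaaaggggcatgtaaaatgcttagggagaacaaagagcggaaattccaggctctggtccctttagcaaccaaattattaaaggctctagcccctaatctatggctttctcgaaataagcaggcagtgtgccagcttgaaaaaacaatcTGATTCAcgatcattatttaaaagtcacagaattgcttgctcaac

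The Serpinb3a and Serpinb3c stretches were near copies, identical at 203 of 216 aligned positions (94.0%), while the best local match of Serpinb3d to Serpinb3a covered 13 positions. Serpinb7, and Serpinb12 at the start shown, hold TGANTCA 45 bases before the start, while the window of the other Serpinb12 start has none. Of the 10 chromosome 1 members with a RefSeq window, 7 held TGANTCA (Serpinb2, Serpinb5, Serpinb7, Serpinb8, Serpinb10, Serpinb11 and Serpinb12), and 3 did not, which were the 3 Serpinb3 copies. Counted by window, TGANTCA stood in 8 of the 12 of chromosome 1 and in 6.75% of all 32851 promoter windows of this length. It stood in 0 of the 18 windows of the Serpinb genes of chromosome 13 and in 4 of the 18 windows of the chromosome 12 Serpina genes. TATAAA stood in 8 of the 12 windows of the chromosome 1 members, those of 6 of the 10 genes, and in 12.4% of all windows. The forkhead core TAAACA was in 0 of the 12 chromosome 1 windows and in 12.0% of all windows. It was in 3 of the 18 windows of the chromosome 13 Serpinb genes and 6 of the 18 of the chromosome 12 Serpina genes. Some windows are not separate observations. Those of Serpinb2 overlap and hold the same TGANTCA and TATAAA matches. The 4 chromosome 12 windows with TGANTCA are those of the nearly identical copies Serpina1a, Serpina1b, Serpina1c and Serpina1d. Those with the forkhead core include Serpina1a, Serpina1c, Serpina1d and Serpina1e. With so few windows per cluster, differences between these shares were not tested. The windows matched 49 of the 55 serpins, and a match of letters shows no binding.

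The Serpinb genes of chromosome 13 showed no common direction. Of 15 genes 6 were positive and 9 negative, 0 passed the threshold in limma, and 0 had an unadjusted limma p under 0.05. An ordinary t statistic called 0 of all 22206 probe sets, so the lack of calls with it tells nothing about these genes. Serpinb1a, an inhibitor of neutrophil elastase and cathepsin G, had the largest difference and read 13.59, 14.08 and 14.50 in controls, and 14.60, 14.31 and 15.49 in knockouts (difference 0.74, 95% interval -0.033 to 1.52, adjusted p = 0.412). Knockout 2 lay below control 3. The difference was 0.40 without knockout 3. It was -0.029 with the mean of a list of squamous epithelium genes in the model, and that mean was itself higher in every knockout.

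Serpinb9, which guards cytotoxic lymphocytes and their neighbours against granzyme B, read 8.64, 8.53 and 8.56 in controls, and 8.23, 7.86 and 8.35 in knockouts (difference -0.43, 95% interval -0.87 to 0.011, adjusted p = 0.405). Serpinb6b read 7.94, 7.78 and 7.82 against 7.55, 7.40 and 7.49 (difference -0.37, 95% interval -0.76 to 0.022, adjusted p = 0.417). These were the 2 genes of the cluster whose groups did not overlap, and in both the knockouts were lower. Serpinb6a, a widely expressed inhibitor needed for hearing in mice, read 15.02, 15.10 and 15.29 against 15.61, 15.36 and 15.24 (difference 0.27, 95% interval -0.16 to 0.70).

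The remaining Serpinb1, Serpinb6 and Serpinb9 copies differed by between -0.35 and 0.38. Of the 15 genes of this cluster, 6 had a mean reading under 4, namely Serpinb6d, Serpinb9b, Serpinb9c, Serpinb9d, Serpinb9e and Serpinb9g. Readings of that level can show little change. In the chromosome 1 cluster the same held for 1 of 11 genes, Serpinb13. Of the 9 chromosome 13 genes with a mean reading of at least 4, 5 were positive and 4 negative, with a median difference of 0.040.

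Among the Serpina genes, Serpina9 stood apart. Serpina9, called centerin, is known from germinal-centre B cells. It read 3.46, 4.61 and 3.53 in controls, and 5.60, 5.76 and 7.02 in knockouts, the largest difference of the family at 2.26 (SE 0.43, 95% interval 1.29 to 3.23, limma adjusted p = 0.0737). Every knockout stood above every control, and knockout 3 was highest. Control readings stood among dim probe sets, where differences can be compressed. The mean of the lymphocyte list was 4.06 to 4.19 in controls, and 3.87 to 3.99 in knockouts, with 6 of its 9 measured genes under a mean reading of 4 and none with all knockouts above all controls. The neighbours of Serpina9 in the chromosome 12 cluster, Serpina11 and Serpina12, differed by 0.073 and 0.060, each with a sign that turned when 1 array was left out. Without any single array the Serpina9 difference was 1.81 to 2.63, with an adjusted p of 0.0898 to 0.182.

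The antitrypsin copies, which protect tissue from neutrophil elastase, overlapped between groups in all 5 genes named here. Serpina1d read 6.80, 8.17 and 9.27 in controls, and 8.47, 8.88 and 8.19 in knockouts, a difference of 0.43 that became -0.21 without control 1 and 1.03 without control 3. Serpina1a read 5.17, 5.62 and 5.88 against 4.98, 5.50 and 5.23 (difference -0.32, adjusted p = 0.644). Serpina1b, Serpina1c and Serpina1e differed by -0.12, -0.32 and -0.040, and single arrays carried these values. Without 1 array in turn they ran from -0.31 to 0.052, from -0.60 to -0.050 and from -0.26 to 0.28. For Serpina1a, Serpina1b, Serpina1c and Serpina1d, control 1 was the lowest control and control 3 the highest. These copies are nearly identical, and array probes may be shared among them.

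Serpina3n, an acute-phase inhibitor induced by inflammation in many tissues, varied more among controls than between genotypes. It read 7.51, 9.74 and 10.43 in controls, and 8.61, 8.92 and 7.90 in knockouts (difference -0.75, 95% interval -2.23 to 0.73, adjusted p = 0.699). Without control 1 the difference was -1.61 and without control 3 it was -0.15. Of the other Serpina3 copies, Serpina3b read 2.91, 2.91 and 4.03 against 2.75, 2.77 and 2.85 (difference -0.49). Its 3 knockouts lay below all controls, but all readings except control 3 were at the bottom of the scale.

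The carriers of hormones read low in the lobe. Serpina7, the thyroxine-binding globulin and the X-linked member of the clade, read 3.67, 4.34 and 3.41 in controls, and 3.06, 3.06 and 3.12 in knockouts (difference -0.73, 95% interval -1.30 to -0.16, adjusted p = 0.265). The knockouts lay below all controls, close to background. Serpina6, the carrier of corticosteroids, read 4.41, 4.54 and 4.37 against 4.56, 4.58 and 4.71 (difference 0.18, adjusted p = 0.734). Hepatocyte markers were dim too, with 7 of 10 under a mean reading of 4 and list means of 4.18 to 4.28 in controls and 3.98 to 4.19 in knockouts.

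Of the 20 Serpina genes 7 were positive and 13 negative, and 11 had a mean reading under 4. None passed the threshold in limma, nor with an ordinary t statistic, which called 0 of all 22206 probe sets. At an unadjusted limma p under 0.05 there was 1 higher (Serpina9) and 1 lower (Serpina7). Serpina5, the protein C inhibitor, Serpina10, the cofactor-dependent inhibitor of coagulation, and Serpina12, the adipokine vaspin, were among the dim ones, with differences of -0.15, -0.22 and 0.060.

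In the remaining clades none of 9 genes passed the threshold in limma, and 0 had an unadjusted limma p under 0.05. None passed with an ordinary t statistic, which called 0 of all 22206 probe sets. In all 9 the groups overlapped. Serping1, the inhibitor of complement C1 and plasma kallikrein, read 11.55, 13.10 and 12.62 in controls, and 12.41, 12.49 and 11.25 in knockouts (difference -0.37, 95% interval -1.38 to 0.64). Control 1 and knockout 3 were the low arrays of their groups, and without knockout 3 the difference was 0.027. Serpinh1, the chaperone that binds procollagen in the endoplasmic reticulum, read 9.68, 9.03 and 9.79 against 9.49, 9.17 and 8.85 (difference -0.33, 95% interval -0.93 to 0.27). The list of fibroblast and matrix genes, with 11 measured, had means of 10.85 to 11.93 in controls and 9.89 to 11.39 in knockouts, lowest in knockout 3, and its part in the Serpinh1 and Serping1 readings was not tested.

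Serpinf1, an inhibitor of vessel growth secreted by stroma and pigment epithelium, read 7.91, 7.95 and 7.91 in controls, and 8.06, 8.86 and 7.10 in knockouts. The controls were nearly alike and the knockouts lay on both sides of them. The mean difference was 0.083, and it was -0.34 without knockout 2 and 0.54 without knockout 3. Serpini1, neuroserpin, which restrains tissue plasminogen activator in nervous tissue, read 4.14, 4.84 and 5.84 against 4.88, 4.03 and 4.66 (difference -0.42). Without control 3 the Serpini1 difference was 0.033. Serpine3 read 4.02, 2.95 and 3.03 against 3.70, 3.83 and 2.97 (difference 0.17), and its difference was -0.025 without control 2 and 0.51 without control 1. The plasma inhibitors made by liver, antithrombin (Serpinc1, -0.067), heparin cofactor (Serpind1, 0.077) and antiplasmin (Serpinf2, 0.047), together with pancreatic Serpini2 (0.017), read between 2.63 and 3.73 on all arrays.

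**Figure D4:**
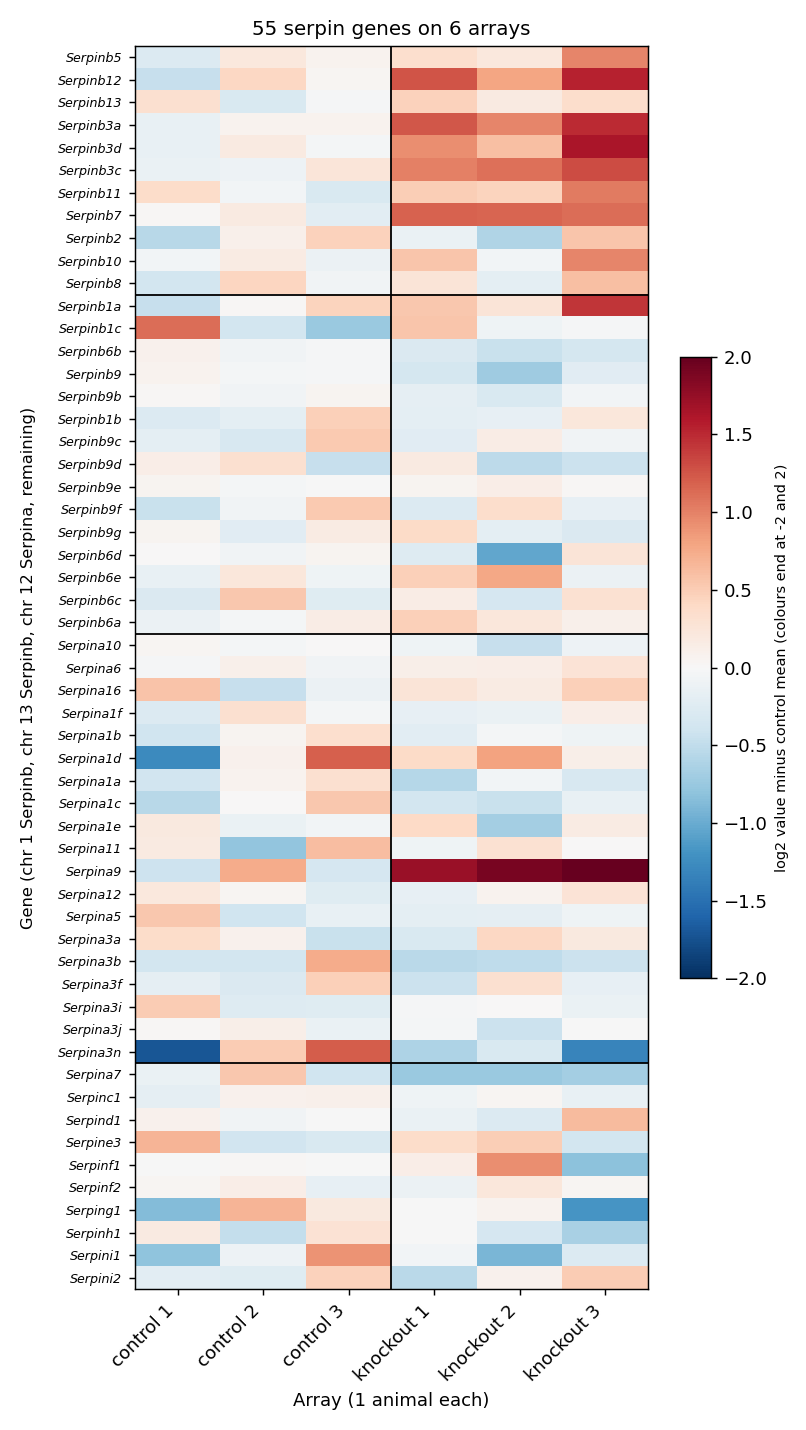
Log2 value minus the control mean of each of the 55 serpin genes (rows, in chromosome order within the chromosome 1, 13 and 12 clusters, then the remaining genes) on the 6 arrays (columns), with colours ending at -2 and 2. The chromosome 1 block is mostly red in knockouts, with the darkest cells in knockout 3, Serpina9 is red in all 3 knockouts, and the other blocks are mixed.

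Array by array, the chromosome 1 readings were lowest and highest on the same arrays as a list of epithelial markers. Their mean over 11 genes was 10.37, 10.62 and 10.51 in controls, and 11.19, 10.92 and 11.55 in knockouts, so no knockout fell among the controls. Knockout 3 was the highest of the 6 arrays for 9 of the 11 genes, and control 1 was the lowest for 6. The list of squamous and basal epithelium genes, with 12 of 13 measured and none under a mean reading of 4, averaged 13.18, 13.63 and 13.61 in controls, and 13.75, 13.73 and 14.38 in knockouts. Of these 12 genes 9 had a positive difference, with a median of 0.24. All knockouts exceeded all controls in 6 of the 12, against 9.28% of all probe sets, and lay below all controls in 1, against 8.78%. Among the 6 were the cornified envelope genes Lor (difference 1.62), Sprr3 (1.15) and Sprr1b (3.13) and the desmosomal cadherin Dsc3 (1.10). Those named had limma adjusted p of 0.0624 to 0.132, and none of the 12 passed the threshold. Krt17 was lower in every knockout, by a log2 difference of -1.89 (adjusted p = 0.113). The basal keratins Krt5 and Krt14 differed by 0.093 and -0.45 and the basal regulator Trp63 by 0.31, with overlapping groups.

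The squamous list mean was higher in every knockout than in every control, so as a covariate it can take up part of a genotype difference. With it added to the model, the Serpinb7 difference was 1.19, Serpinb3a 0.97 and Serpinb3c 0.94. This alternative was chosen after the values were seen and leaves 3 residual degrees of freedom. Under it the difference was 0.67 for Serpinb12, 0.53 for Serpinb3d, 0.0074 for Serpinb5 and 1.35 for Serpina9, with adjusted p of 0.339 or more for all of these, and 9 of the 11 chromosome 1 genes had a positive difference. Control 1 and knockout 3 were also the arrays without Y-linked signal (means of 3.04 and 2.65, against 8.03 to 8.30 on the others), 1 in each group. With both left out, Serpinb7 differed by 1.19, Serpinb3a by 1.04, Serpinb3c by 0.98, Serpinb12 by 0.79, Serpinb3d by 0.70 and Serpina9 by 1.61, with adjusted p of 0.165 or more, and Serpinb5 by 0.14. With the Y-linked mean as a covariate the Serpinb7 difference was 1.15 (adjusted p = 0.0629).

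**Figure D5:**
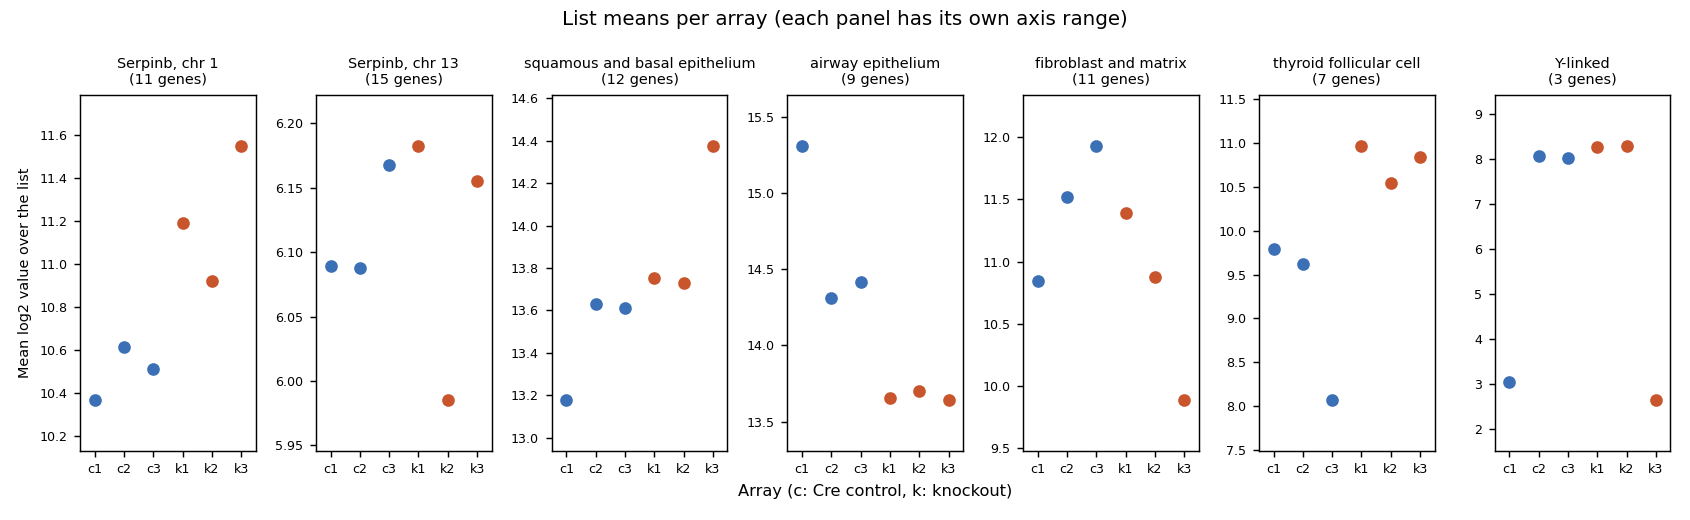
Mean log2 value over the measured genes of each list (vertical axes, each with its own range) on the 3 control arrays (c1 to c3) and 3 knockout arrays (k1 to k3). The chromosome 1 Serpinb mean and the squamous mean are both lowest in c1 and highest in k3, airway means are lower in all knockouts, and Y-linked signal is absent from c1 and k3.

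The other marker lists are given for the cells a dissected lobe can hold. Airway epithelium means ran from 14.31 to 15.31 in controls, and 13.64 to 13.70 in knockouts, with negative differences in all 9 measured genes. Skeletal muscle, with 12 genes, and adipocytes, with 7, had no gene with a positive difference. Endothelial, macrophage and C cell list medians were -0.14, -0.64 and -0.67. Parathyroid genes, 3 measured, ranged in mean from 5.95 to 16.93 across arrays with the groups overlapping. The 7 measured follicular cell genes had positive differences, with a median of 1.52. The mast cell list median was 0.13, with 6 of 9 genes positive.

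The proteases that serpins act on, and inhibitors of other families, were read from 12 lists with 153 measured genes of 161. None of the 153 passed the threshold in limma. With an ordinary t statistic none did either, but it called 0 of all 22206 probe sets, so this is no second check. At an unadjusted limma p under 0.05 there were 20 higher and 13 lower, beside 6.61% and 6.13% of all probe sets. These counts were 11 and 11 without control 1 and knockout 3, and 4 and 8 with the squamous list mean in the model. With a variance trend, which called 109 of all 22206 probe sets, 4 of the 153 were called, Spink5 and Wfdc12 higher and Anxa2 and Tmprss11a lower. A robust trend, which called 118 of all probe sets, called 5, with Wfdc18 added. Tmprss11a was the 1 call with renewed quantile normalization (81 of all probe sets called) and with array weights (106). It was also the 1 call with either filter on dim probe sets. Above the median level 83 of the 153 were tested, and 73 of 11101 probe sets were called. At a mean of at least 4, 104 of the 153 were tested, and 92 of 14866 probe sets were called. Wfdc18 was the 1 call with the replicate number as a block, which called 63 of all probe sets.

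Tissue kallikreins, serine proteases of which several shed the outer skin layer, had 11 of 13 positive differences and a median of 0.79. Their list mean was 7.96 to 8.85 in controls and 8.86 to 9.67 in knockouts, lowest in control 1 and highest in knockout 3. Klk1, the kinin-releasing member, went from 4.32 ± 0.28 to 6.40 ± 0.99 (SD, n = 3 each, difference 2.07, adjusted p = 0.098), and Klk7, which cleaves corneodesmosomes, differed by -1.05 (adjusted p = 0.146). Membrane-anchored serine proteases had 10 of 15 positive and a median of 0.30. Tmprss11a was lower in every knockout, 15.47 ± 0.16 against 14.18 ± 0.28 (difference -1.29, adjusted p = 0.0502), and its relative Tmprss11f differed by 1.41 (adjusted p = 0.136).

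Among Kunitz, Kazal and whey-acidic inhibitors 8 of 16 were positive. Spink5, which inhibits the skin kallikreins and whose loss causes Netherton syndrome, went from 12.94 ± 0.58 to 14.59 ± 0.27 (difference 1.64, adjusted p = 0.0714), and Wfdc12 differed by 1.50 (adjusted p = 0.0627). The largest difference of the list was in the other direction, Wfdc18 at -2.64 (adjusted p = 0.0737), and Wfdc2, an airway and epithelial secretory protein, was at -1.41 (adjusted p = 0.098). These 2, named after their values were seen, and Wfdc21 had all knockouts below all controls. Cystatins and stefins, many but not all of which inhibit cysteine proteases, had 12 of 15 positive and a median of 0.25, led by Cst6 (1.01, adjusted p = 0.176) and Fetub (1.19, adjusted p = 0.218). TIMPs and macroglobulins were split, 8 and 8, with Cd109 at 0.76 (adjusted p = 0.172) and Timp4 at -0.77 (adjusted p = 0.317).

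For plasminogen activation 7 of 9 were negative, with the plasminogen receptor subunit Anxa2 at -1.14 (adjusted p = 0.068) and thrombomodulin, Thbd, at 0.69 (adjusted p = 0.235). Coagulation genes were negative in 12 of 15, with F5 at -0.79 and F9 at -0.70. Papain-family cathepsins were negative in 7 of 10, with Ctsz at -0.77 and Ctso at -0.34, and complement C1 and lectin-pathway genes in 8 of 11, with C4b at -1.17 and C1qa at -0.24. Collagen folding genes that work beside Serpinh1 were split, 6 positive and 8 negative, with P4hb at 0.69 and Plod1 at -0.85. Leukocyte and mast cell serine proteases, which include targets of Serpinb1a and Serpinb9, were split 7 and 6, with 10 of 13 under a mean reading of 4, Tpsb2 at 0.81 and Mcpt1 at -0.45. Receptors that clear serpin complexes and other hormone carriers had 4 of 7 negative, with Vldlr at -0.60 and Lrp1 at -0.70. In the coagulation, cathepsin, complement, collagen folding, leukocyte protease and clearance lists the lowest adjusted p was 0.199.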

How the data were processed

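RNA of 1 thyroid lobe from each of 6 mice (3 knockouts, 3 Cre controls, grouped by the sample titles) was hybridised to whole-transcript arrays after labelling 250 ng with the WT PLUS kit, per the labels. The deposited values are log2 signals, 1 per probe set and array, for which the submitters' processing notes name RMA and Affymetrix Expression Console. RMA equalises arrays, so a change shared by most transcripts is removed. The sources used here do not state versions, settings or the genome build. The limma p-values rest on the spread between these animals, moderated towards a variance estimated over all probe sets.

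Probe sets were named through the platform annotation, updated through gene identifiers to RefSeq (GRCm38.p6, used for names, gene order and the promoter windows). Of 22206 probe sets 19572 carry 1 symbol and 2634 are unnamed here. All probe sets, unfiltered, were tested with limma 3.58.1 in R 4.3.3 (lmFit, eBayes, two-sided, Benjamini-Hochberg over all probe sets, threshold 0.05). Differences are knockout minus control. Of the 55 serpins, 32 had a mean reading of at least 4 and 19 lay above the median level. Tested on simulated data for this comparison (22206 probe sets), the fit called 24% of 50 probe sets changed by 1 unit and 92% of 50 changed by 2.

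The family, its members and all gene lists were chosen with earlier results of these data known. Values per array are given for members past the threshold, the 4 largest differences and the 3 brightest of each clade, and others where a role is described. Of each protease list the members past the threshold or, as none passed, the 2 with the smallest p are named. Other settings are given in the closing section. Arrays of 3 animals per group limit the precision of every value. Figures used matplotlib 3.10.9. The same-numbered replicates gave deviation correlations of -0.0090, 0.076 and 0.017, so the numbers were not taken as pairs.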

Additional observations from a re-analysis of the deposited data

How the results depend on the processing

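The count of 1 serpin past the threshold became 2 (Serpinb3a and Serpinb7) with median centring, a variance trend with or without robust fitting, array weights, or either filter on dim probe sets (above the median level, or a mean of at least 4), 4 at a threshold of 0.1, and 0 with an ordinary t statistic, the Y-linked mean as a covariate, the squamous mean as a covariate, or without control 1 and knockout 3, and it lay between 0 and 0 without any 1 array. With renewed quantile normalization the single call was Serpinb3a. Over all 22206 probe sets, median centring called 89, the variance trend 109, array weights 106, renewed quantile normalization 81 and the Y-linked covariate 82. The filters called 73 of 11101 probe sets above the median level and 92 of 14866 with a mean of at least 4. With the replicate number as a block (replicate block) the serpin count was 0, and over all probe sets the block gave 63 calls. Same-numbered arrays shared only a number. Leaving out control 1 and knockout 3 together and the squamous covariate were chosen after seeing the data. The count over all probe sets, 75, was 118 with a robust variance trend, 260 at a threshold of 0.1, 0 with an ordinary t statistic (limma gave 1467 higher and 1361 lower at an unadjusted p under 0.05), 6 without control 1 and knockout 3, 2 with the squamous covariate, and 2 to 43 without 1 array. The Serpinb median of 0.18 became 0.50 above the median level and 0.38 at a mean of at least 4, and 0.047 with the squamous covariate, and the median of the other clades became -0.33 and -0.35 with those filters, where fewer genes remain. The Foxe1 difference was negative in every setting that tested it, with its call lost with the ordinary t statistic (-4.19, adjusted p = 0.223), and its probe set is not above the median level. Without 1 array it lay between -4.32 and -4.03. The sign of 24 of the 55 serpins turned without some 1 array, of 3 with renewed quantile normalization, of 4 with median centring, of 8 without control 1 and knockout 3 and of 9 with the squamous covariate. Among members named by rule it turned for Serpina1d without control 1 (-0.21) and without control 1 and knockout 3 (-0.045), Serpine3 without control 2 (-0.025), Serpinf1 without knockout 2 (-0.34), Serping1 without knockout 3 (0.027), Serpini1 without control 3 (0.033) and Serpinh1 with the squamous covariate (0.013). The cause was not tested. Without 1 array in turn, the same genes lay between -0.21 and 1.03 (Serpina1d), -0.025 and 0.51 (Serpine3), -0.34 and 0.54 (Serpinf1), -0.81 and 0.027 (Serping1), and -0.82 and 0.033 (Serpini1). Of the 11 chromosome 1 Serpinb genes at least 9 were positive in each setting that tested all 11. Clade medians without 1 array lay between -0.17 and -0.062 (Serpina), 0.13 and 0.25 (Serpinb) and -0.12 and 0.057 (others). Averaging probe sets changed nothing, as each serpin has 1.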
